A study of Mus musculus with 6 samples.

Results

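The carnitine shuttle and mitochondrial beta-oxidation were followed through 9 enzymes and carriers, *Cpt1a*, *Cpt2*, *Slc25a20*, *Acadm*, *Acadl*, *Acadvl*, *Hadha*, *Hadhb* and *Etfa*. They were chosen by name as genes of these steps, and all 9 were found among the 56748 genes of the table and among the 14936 genes that passed the filter on low counts. The RNA was from unsorted murine CD4 T cells, grown from naïve cells of wild-type splenocytes for 3 days under Treg polarizing conditions. For its T cell isolation the paper names C57BL/6 mice, and lymph nodes beside the spleen. Of the 6 libraries, 3 were labelled Scramble, for a control antisense oligonucleotide (ASO), and 3 were labelled ASO, for an oligonucleotide against phosphoglycerate mutase, the glycolytic enzyme encoded by *Pgam1* and *Pgam2*. The comparison asks how the transcripts of a fuel route linked to Treg cells stood in the presence of either oligonucleotide.

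Long-chain fatty acids are joined to coenzyme A and cross into mitochondria as carnitine esters. In the matrix, acyl-CoA dehydrogenases, the trifunctional protein and shorter-chain enzymes cut them into acetyl-CoA, and electron transfer flavoprotein carries the electrons of the dehydrogenases towards the respiratory chain. Treg cells are known for their use of this route, while effector T cells rely more on glycolysis.

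The Scramble libraries held 16231127 to 18032805 counts each and the ASO libraries 15860476 to 16803881. The targeted genes were read first. *Pgam1* stood at 600, 478 and 707 CPM (counts relative to library size, scaled by TMM) in Scramble replicates 1, 2 and 3 and at 658, 661 and 707 CPM in ASO replicates 1, 2 and 3. The groups overlapped, and the log2 fold change of *Pgam1*, given throughout as ASO minus Scramble, was 0.18 (95% interval -0.10 to 0.46, edgeR adjusted p = 0.331). The copy *Pgam1-ps2* shares 37.1% of the 31-base stretches of *Pgam1*. *Pgam2* stood at 5.23, 6.75 and 2.85 CPM in the Scramble libraries and at 2.98, 2.69 and 2.60 CPM in the ASO libraries. Scramble replicate 3 lay within the range of the ASO libraries for *Pgam2*, which did not pass the test (log2 fold change -0.84, 95% interval -1.54 to -0.15, edgeR adjusted p = 0.0854). The interval, which is not adjusted over genes, leaves out 0, and *Pgam2* was called lower without that library and with no filter on low counts (edgeR adjusted p = 0.0144 and 0.0292). Neither targeted gene passed the test with all 6 libraries and the filter, and the groups are named by their labels only.

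The T cell markers *Cd3e*, *Cd3d*, *Cd3g*, *Cd4*, *Trac*, *Cd28*, *Lck* and *Cd5* were all detected, with summed levels of 3167, 3458 and 2913 CPM of total counts in the Scramble libraries and 2444, 2502 and 2687 CPM in the ASO libraries, and *Cd4* was the most abundant of them. Of these 8 markers 3 were called lower by edgeR, beside 9.15% of all tested genes, and 7 did not overlap between the groups, beside 39.5%. *Foxp3*, the transcription factor that defines Treg cells, was at 282, 371 and 222 CPM in the Scramble libraries and 89.7, 109 and 131 CPM in the ASO libraries. It fell by 1.41 on the log2 scale (edgeR adjusted p = 0.00567), with every ASO library below every Scramble library. In RNA from unsorted cultures, fewer cells of a type and less RNA per cell cannot be told apart.

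Of the 9 enzymes, 0 were called higher and 0 were called lower by edgeR at an adjusted p under 0.05, where 8.03% of all tested genes were called higher and 9.15% lower. The count at an unadjusted p under 0.05 was also 0 of 9, against 34.9% of tested genes, and DESeq2 and limma-voom called 0 as well. That unadjusted count was 3 of 9 without Scramble replicate 3, 2 of 9 with no filter and 1 of 9 without ASO replicate 2. The libraries of the groups overlapped for all 9, while 39.5% of tested genes did not overlap. The fold changes were positive for 5 and negative for 4, with a median log2 fold change of 0.02 beside -0.01 over all tested genes. A p that misses the threshold does not show that a level was the same, so the intervals matter here: all 9 held 0, and they reached down to -0.56 for *Cpt1a* and up to 0.44 for *Etfa*. The median standard error of the log2 fold change was 0.11 for the 9 enzymes and 0.15 over all tested genes. Counts behind single values ran from 332 for *Cpt2* to 2993 for *Hadha*. Together the 9 held 0.0617%, 0.0629% and 0.0633% of all counts in the Scramble libraries and 0.0609%, 0.0624% and 0.0616% in the ASO libraries, so these summed shares overlapped too.

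**Figure D1:**
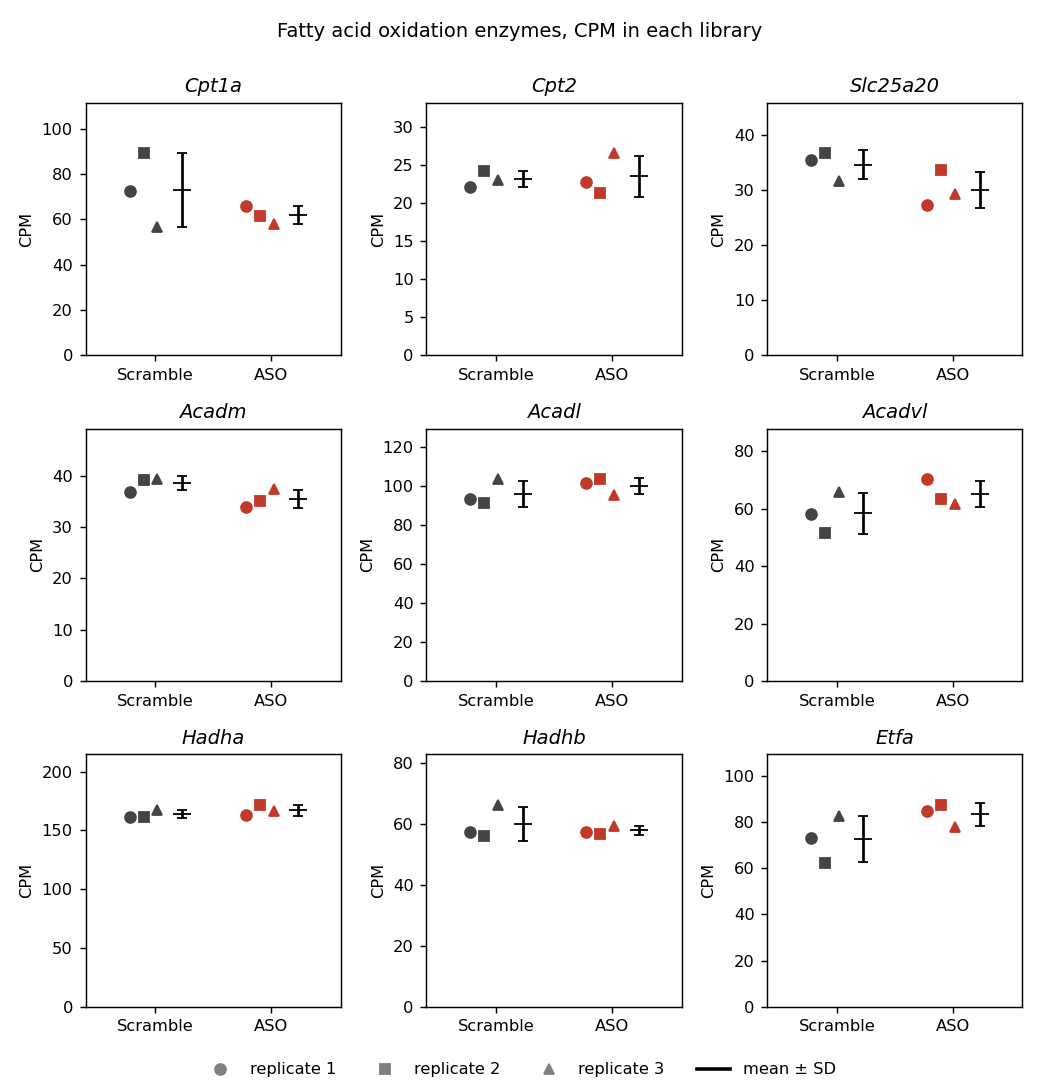
Level of each of the 9 enzymes in CPM (vertical axis, from 0) in the 3 Scramble and 3 ASO libraries, with 1 marker shape per replicate number and the mean ± SD beside each group. The groups overlap in all 9 panels, and the *Cpt1a* libraries labelled Scramble are spread the widest, from 56.4 to 89.1 CPM.

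The carnitine shuttle starts with *Cpt1a* (ENSMUSG00000024900, chr19:3322334-3385733, plus strand), which makes acylcarnitine at the outer membrane and is the entry step that malonyl-CoA inhibits. *Cpt1a* stood at 72.6, 89.1 and 56.4 CPM in Scramble replicates 1, 2 and 3 and at 65.9, 61.6 and 58.0 CPM in the ASO libraries. Scramble replicate 2 was the highest and Scramble replicate 3 the lowest of all 6 libraries, so that the whole ASO group lay inside the Scramble range. Its log2 fold change was -0.23 (95% interval -0.56 to 0.09, edgeR adjusted p = 0.28). The coefficient of variation was 22.5% over the Scramble libraries and 6.36% over the ASO libraries. The call depended on 1 library: without Scramble replicate 3 the log2 fold change of *Cpt1a* was -0.38 and it passed the test (edgeR adjusted p = 0.0357), whereas without Scramble replicate 2 it was -0.06 (edgeR adjusted p = 0.785). Adjusted p over the 16 alternatives ran from 0.0357 to 0.785.

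*Slc25a20* (ENSMUSG00000032602, chr9:108662088-108684641, plus strand) encodes the inner-membrane carrier that exchanges acylcarnitine for carnitine. It was at 35.5, 36.6 and 31.6 CPM in the Scramble libraries and 27.3, 33.6 and 29.2 CPM in the ASO libraries. ASO replicate 2 exceeded Scramble replicate 3, so the groups overlapped by that pair of libraries, with a log2 fold change of -0.20 (95% interval -0.46 to 0.05, edgeR adjusted p = 0.229). *Cpt2* (ENSMUSG00000028607, chr4:107903981-107923610, minus strand), which returns the acyl group to coenzyme A in the matrix, was at 22.1, 24.3 and 23.1 CPM in the Scramble libraries and 22.8, 21.3 and 26.6 CPM in the ASO libraries. The highest and the lowest *Cpt2* values both came from ASO libraries, and the log2 fold change was 0.02 (95% interval -0.24 to 0.29, edgeR adjusted p = 0.904).

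The acyl-CoA dehydrogenases carry out the first oxidation and differ in the chain length they accept. *Acadvl* (ENSMUSG00000018574, chr11:70010183-70015411, minus strand), the very-long-chain enzyme of the inner membrane, was at 58.1, 51.5 and 65.7 CPM in the Scramble libraries and 70.3, 63.5 and 61.7 CPM in the ASO libraries. Scramble replicate 3 lay among the ASO libraries, and the log2 fold change was 0.16 (95% interval -0.08 to 0.39, edgeR adjusted p = 0.321). The *Acadvl* values carry a limit, since *Dvl2* on the opposite strand overlaps its exons and holds 33.2% of its 31-base stretches. For the summed counts of *Acadvl* and *Dvl2*, a setting chosen after seeing the data, the log2 fold change was 0.08. *Acadl* (ENSMUSG00000026003, chr1:66830839-66863277, minus strand), the long-chain enzyme, was at 93.4, 91.5 and 104 CPM in the Scramble libraries and 102, 104 and 95.6 CPM in the ASO libraries. Its highest libraries were Scramble replicate 3 and ASO replicate 2, and the log2 fold change was 0.06 (95% interval -0.13 to 0.25, edgeR adjusted p = 0.647). *Acadm* (ENSMUSG00000062908, chr3:153922357-153944632, minus strand), the medium-chain enzyme, was at 37.0, 39.3 and 39.4 CPM in the Scramble libraries and 33.9, 35.2 and 37.5 CPM in the ASO libraries. The groups overlapped because ASO replicate 3 exceeded Scramble replicate 1, and the log2 fold change was -0.12 (95% interval -0.32 to 0.09, edgeR adjusted p = 0.396).

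*Hadha* and *Hadhb* encode the alpha and beta subunits of the trifunctional protein, which carries the hydratase, hydroxyacyl-CoA dehydrogenase and thiolase steps for long chains. *Hadha* (ENSMUSG00000025745, chr5:30118304-30155162, minus strand) was at 162, 162 and 168 CPM in the Scramble libraries and 163, 172 and 166 CPM in the ASO libraries. It had the smallest spread of the 9 over the Scramble libraries, a coefficient of variation of 2.15%, and a log2 fold change of 0.03 (95% interval -0.14 to 0.20, edgeR adjusted p = 0.816). *Hadhb* (ENSMUSG00000059447, chr5:30155248-30184593, plus strand) was at 57.2, 56.1 and 66.2 CPM in the Scramble libraries and 57.3, 56.7 and 59.3 CPM in the ASO libraries. Scramble replicate 3 stood above the other 5 libraries, which differed little, and the log2 fold change was -0.05 (95% interval -0.25 to 0.15, edgeR adjusted p = 0.735). The copy *Gm13910* shares 19.5% of the 31-base stretches of *Hadhb* and was counted at 306 to 394, so reads of this pair may be split.

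The genes of the 2 subunits lie head to head on chromosome 5. The 85 bases that separate their ends in GENCODE M21 (chr5:30155163-30155247, GRCm38.p6, plus strand, 5′ to 3′) are shown because the genes run away from them on either side. By RefSeq the promoter window of *Hadha* is chr5:30154931-30155230, so its RefSeq start site lies inside the GENCODE bounds of *Hadha*. Capitals mark GGGCGG, the GC box.
Hadha and Hadhb: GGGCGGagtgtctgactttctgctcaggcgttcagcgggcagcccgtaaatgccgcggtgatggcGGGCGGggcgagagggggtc
GGGCGG, on either strand, was found in the promoter windows of 6 of the 9 genes and in 35.7% of the 32851 windows in the RefSeq table, each from 250 bases before to 50 after a start site. The windows of *Hadha* and *Hadhb* overlap, and the match counted for *Hadha* is a stretch also counted for *Hadhb*. Divided by mean coding-transcript length, *Hadha* exceeded *Hadhb* by 1.18, 1.21 and 1.06 times in the Scramble libraries and by 1.19, 1.27 and 1.17 times in the ASO libraries. These ratios overlapped between the groups. Counts given to *Gm13910*, 306 to 394, are not part of the *Hadhb* level, so these values do not settle which subunit gene was higher. The ratio also rests on the length taken. With the longest transcript the means over 6 libraries were 41.2 CPM per kb for *Hadha* and 28.7 for *Hadhb*, against 41.2 and 34.9 by mean length.

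*Etfa* (ENSMUSG00000032314, chr9:55454508-55512243, minus strand) encodes the alpha subunit of electron transfer flavoprotein, the acceptor for the acyl-CoA dehydrogenases above. It was at 73.2, 62.3 and 82.7 CPM in the Scramble libraries and 84.8, 87.5 and 78.0 CPM in the ASO libraries. Scramble replicate 3 exceeded ASO replicate 3, so the groups overlapped, and the log2 fold change was 0.20 (95% interval -0.04 to 0.44, edgeR adjusted p = 0.224). This was the lowest adjusted p of the 9. With 1 library left out the log2 fold change of *Etfa* ran from 0.10 without Scramble replicate 2 to 0.30 without Scramble replicate 3 (edgeR adjusted p = 0.564 and 0.0667). Its partner *Etfb*, the beta subunit, was at 8.497, 6.48 and 8.92 CPM in the Scramble libraries and 15.8, 11.9 and 11.1 CPM in the ASO libraries. All 3 ASO libraries were above all 3 Scramble libraries, and *Etfb* rose by the test (log2 fold change 0.70, 95% interval 0.27 to 1.13, edgeR adjusted p = 0.0349). Per kb of mean coding-transcript length, *Etfa* exceeded *Etfb* by 3.78, 4.21 and 4.06 times in the Scramble libraries and by 2.36, 3.23 and 3.07 times in the ASO libraries, without overlap. The ratio was chosen after the values were seen and was not tested. The call of *Etfb* was lost when Scramble replicate 1 or 2 or ASO replicate 1 or 2 was left out (highest edgeR adjusted p = 0.127), and *Gm45233*, listed at 0 counts, shares 47.3% of its 31-base stretches.

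**Figure D2:**
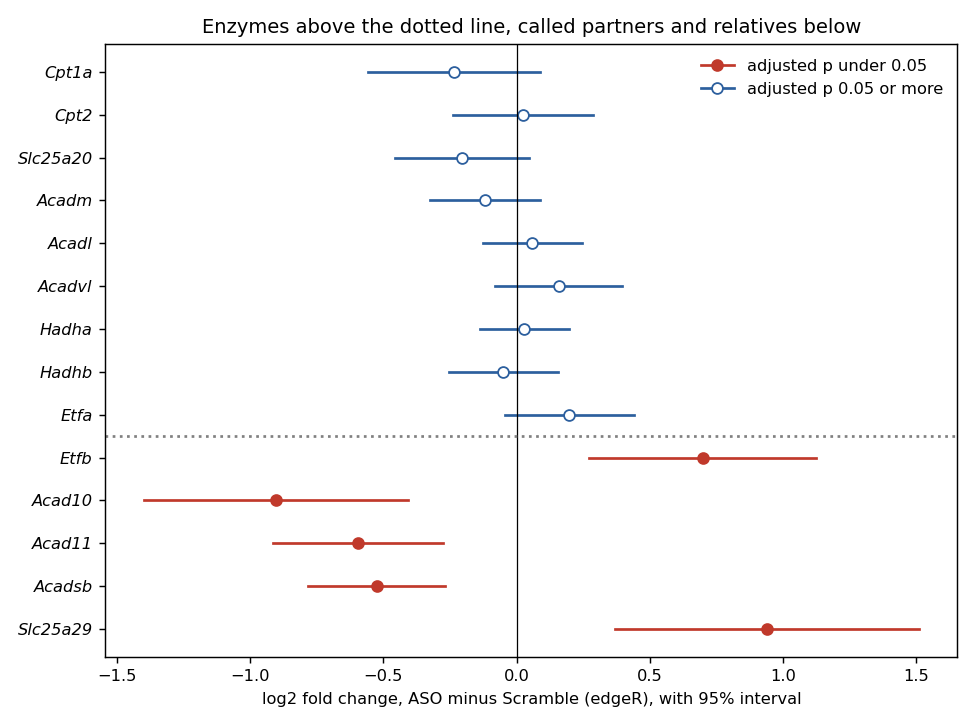
Log2 fold change, ASO minus Scramble, with its 95% interval from edgeR (horizontal axis) for the 9 enzymes and, under the dotted line, the called genes among their partners and relatives. Open points did not pass an adjusted p of 0.05, and all 9 enzyme intervals cross 0, from -0.56 at the lowest to 0.44 at the highest.

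Levels between genes were compared per kb of mean coding-transcript length. *Etfa* had the highest mean at 56.1 ± 6.64 CPM per kb (SD, n = 6 libraries), followed by *Acadl* at 51.3 ± 2.82 and *Hadha* at 41.2 ± 0.995. *Cpt1a* at 35.5 ± 6.44, *Hadhb* at 34.9 ± 2.23, *Acadvl* at 29.5 ± 3.11 and *Acadm* at 28.4 ± 1.68 CPM per kb came next. These means pool both groups, and the order differed between them: in the ASO libraries *Hadhb* at 34.3 was above *Cpt1a* at 32.7 CPM per kb, and in the Scramble libraries *Acadm* at 29.5 was above *Acadvl* at 27.9 CPM per kb. *Cpt2* at 20.1 ± 1.60 and *Slc25a20* at 18.1 ± 2.04 CPM per kb were the lowest. Between neighbours in this order, the ranges over 6 libraries were apart only from *Acadl* to *Hadha* and from *Acadm* to *Cpt2*. The order rests on the length taken: with the longest transcript, *Cpt1a* moved from rank 4 to rank 8 at 15.6 CPM per kb, while *Etfa*, *Acadl* and *Hadha* stayed the first 3. By that length *Slc25a20* moved from rank 9 to rank 6 at 18.1 CPM per kb. *Cpt2* was then the lowest at 9.85 CPM per kb, and *Acadm* kept rank 7 at 18.1 CPM per kb.

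**Figure D3:**
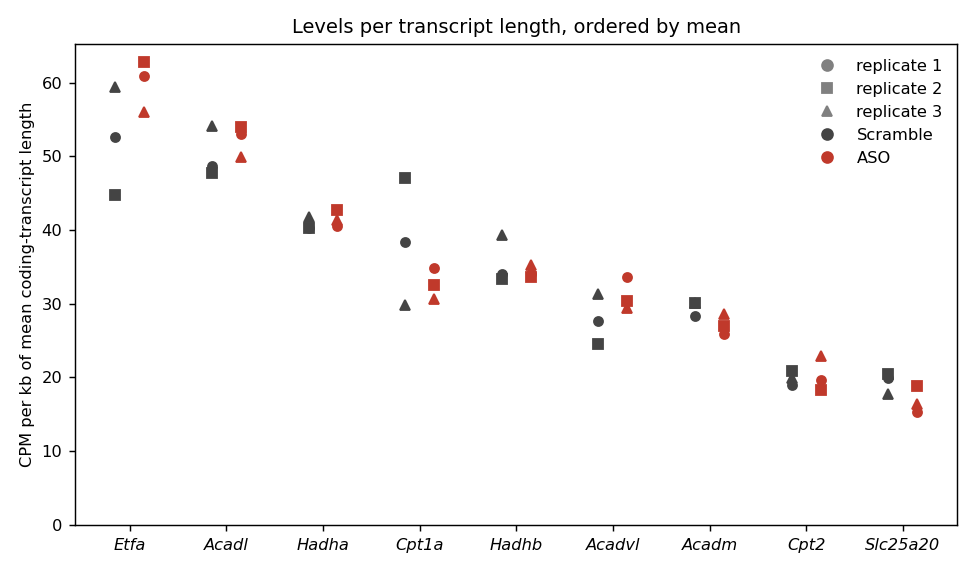
CPM per kb of mean coding-transcript length (vertical axis, from 0) for the 9 enzymes in order of their mean, with each library as a point, colour for the group and shape for the replicate number. Ranges of neighbours overlap other than between *Acadl* and *Hadha* and between *Acadm* and *Cpt2*.

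Scramble replicate 2 was described further after its values were seen. It had the highest level of the group for *Cpt1a*, *Cpt2* and *Slc25a20*, the 3 shuttle genes. The same library had the lowest level of the group for 5 of the 6 genes after the shuttle, *Acadl*, *Acadvl*, *Hadha*, *Hadhb* and *Etfa*, though for *Hadha* it lay next to Scramble replicate 1. The opposite order stood in Scramble replicate 3, the highest of the group for all 6 genes after the shuttle and the lowest for *Cpt1a* and *Slc25a20*. For *Acadm*, though, Scramble replicate 3 lay next to Scramble replicate 2, at 39.4 against 39.3 CPM. Relative to each gene's mean over the 6 libraries, Scramble replicate 2 stood at 0.42 for *Cpt1a* and at -0.32 for *Etfa* on the log2 scale. Scramble replicate 2 also had the highest *Foxp3* of the 6 libraries and the lowest *Pgam1*, as given above. Over the 6 libraries Pearson's r of log2 CPM was -0.853 for *Cpt1a* with *Etfa*, 0.625 for *Cpt1a* with *Slc25a20*, -0.035 for *Cpt1a* with *Cpt2*, -0.291 for *Cpt2* with *Slc25a20*, 0.925 for *Acadvl* with *Etfa* and 0.327 for *Hadha* with *Hadhb*. *Acadm*, a gene after the shuttle, had an r of 0.519 with *Slc25a20* and -0.614 with *Etfa*. These are descriptions over 6 libraries in 2 groups, with no test.

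**Figure D4:**
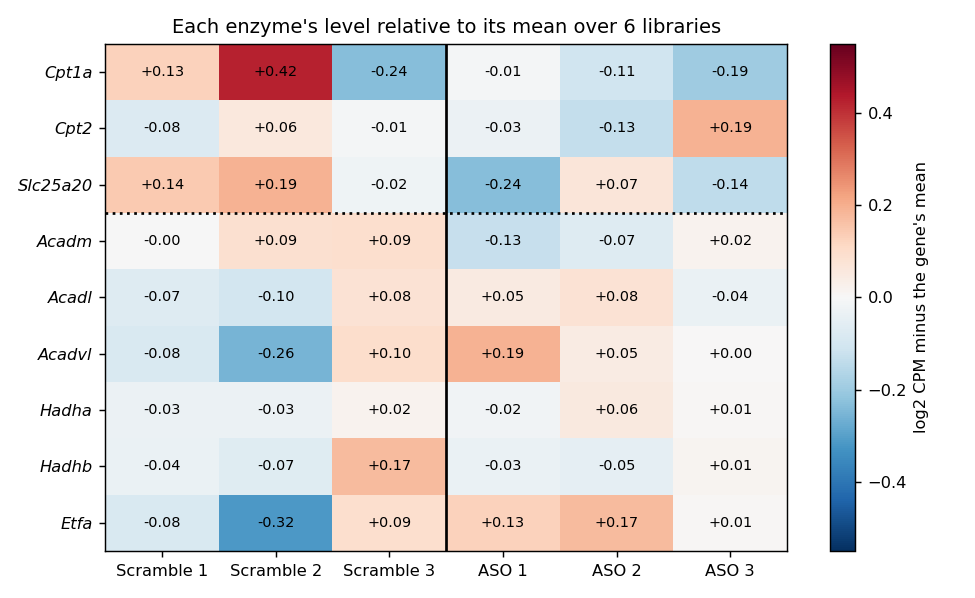
Log2 CPM of each enzyme minus its mean over the 6 libraries (colour and printed value), with libraries in columns, Scramble to the left of the line, and shuttle genes above the dotted line. Scramble replicate 2 has the highest cell, 0.42 for *Cpt1a*, and the lowest, -0.32 for *Etfa*.

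The tested genes with a pattern most like that of *Cpt1a*, among 12050 with a mean log2 CPM of at least 1, were *Cdk13* (r = 0.991), *Anxa9* (r = 0.990) and *Gpr174* (r = 0.988) over 6 libraries. *Gpr174*, a lymphocyte receptor for lysophosphatidylserine, was at 64.0, 86.7 and 52.1 CPM in the Scramble libraries and 58.4, 54.7 and 51.1 CPM in the ASO libraries. Like *Cpt1a*, these 3 genes were highest in Scramble replicate 2, and none passed the test (edgeR adjusted p = 0.584 for *Cdk13*, 0.373 for *Anxa9* and 0.214 for *Gpr174*). An r of at least 0.95 was reached by 37 genes.

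The wider pathway was read from 7 further lists, which together name 87 genes, of which 72 were tested. Of the 72, 8 were called higher and 6 lower, beside 8.03% and 9.15% of all tested genes, and their median log2 fold change was -0.01. At an unadjusted p under 0.05 there were 31 of them, and 33 did not overlap between the groups, beside 34.9% and 39.5% of all tested genes.

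Among 12 tested genes of fatty acid uptake and activation, 2 rose and 0 fell by edgeR, where 8.03% of all tested genes were higher and 9.15% lower. At an unadjusted p under 0.05, 4 were higher and 2 lower, beside 34.9% of all tested genes in either direction. DESeq2 called 3 higher and 1 lower, and limma-voom 2 higher and 0 lower. *Acsl6*, a long-chain acyl-CoA synthetase, was at 7.48, 6.91 and 9.11 CPM in the Scramble libraries and 20.5, 19.6 and 22.9 CPM in the ASO libraries. The ASO libraries of *Acsl6* were all above the Scramble libraries, and *Acsl6* rose, by 1.42 on the log2 scale (edgeR adjusted p = 0.000768). *Acsl4*, which prefers polyunsaturated chains, rose by 0.37 (edgeR adjusted p = 0.0375), a call lost without Scramble replicate 1 or 2 or ASO replicate 1 or 2 (highest edgeR adjusted p = 0.161). Of 4 other tested genes of the carnitine shuttle, 1 rose, *Slc25a29*, at 1.52, 1.78 and 2.11 CPM in the Scramble libraries and 3.60, 3.46 and 3.31 CPM in the ASO libraries (log2 fold change 0.94, edgeR adjusted p = 0.0343). *Slc25a29* is known chiefly as a carrier of basic amino acids, and its call was lost without any 1 of the same 4 libraries (highest edgeR adjusted p = 0.129). *Cpt1b*, the muscle form of the entry enzyme, did not pass the filter on low counts and shares 79.7% of its 31-base stretches with *Gm44502*.

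Among 14 other genes of mitochondrial beta-oxidation, 1 rose, *Etfb*, and 3 fell, beside 8.03% and 9.15% of all tested genes, and the median log2 fold change was 0.04. *Acad10*, of the acyl-CoA dehydrogenase family, fell by 0.90 on the log2 scale (11.1, 12.04 and 8.18 against 4.35, 5.52 and 6.86 CPM, edgeR adjusted p = 0.0251). *Acad11*, of the same family, fell by 0.60 (19.9, 24.7 and 19.6 against 13.3, 16.2 and 13.0 CPM, edgeR adjusted p = 0.0239), and *Acadsb*, which acts on short branched chains from isoleucine, fell by 0.52 (32.2, 38.2 and 34.5 against 21.5, 25.7 and 25.8 CPM, edgeR adjusted p = 0.0178). The ASO libraries were all below the Scramble libraries for these 3 genes. *Acad10* and *Acad11* lost their calls without Scramble replicate 1 or 2 or ASO replicate 1 or 2, and *Acadsb* without ASO replicate 1 or 2 (highest edgeR adjusted p = 0.11, 0.078 and 0.0754), and *Acad10* shares sequence with *Acad12*.

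In the peroxisomal list 0 of 14 tested genes were called by edgeR in either direction and 0 by limma-voom, while DESeq2 called 1 higher; edgeR called 8.03% of all tested genes higher and 9.15% lower. At an unadjusted p under 0.05 there were 6 of the 14, 2 higher and 4 lower, beside 34.9% of all tested genes, and the median log2 fold change was -0.08. Its most abundant gene, *Ech1*, was at 89.9, 82.2 and 93.6 CPM in the Scramble libraries and 91.2, 87.8 and 95.7 CPM in the ASO libraries, which overlapped. Of 7 genes of lipid store breakdown, 1 rose and 0 fell by edgeR. At an unadjusted p under 0.05, 1 was higher and 2 lower, beside 34.9% of all tested genes in either direction. DESeq2 called 1 higher and 1 lower, and limma-voom 1 higher and 0 lower. The gene that rose was *Mgll*, monoacylglycerol lipase, at 2.64, 1.998 and 5.20 CPM in the Scramble libraries and 18.8, 16.0 and 13.2 CPM in the ASO libraries (log2 fold change 2.30, 95% interval 1.60 to 2.99, edgeR adjusted p = 0.00273). *Pnpla2*, which starts triglyceride breakdown and was the most abundant gene of that list, was at 65.1, 61.6 and 66.0 CPM in the Scramble libraries and 60.0, 57.2 and 64.3 CPM in the ASO libraries, with overlap (edgeR adjusted p = 0.506).

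Of 17 tested regulators, 3 rose and 1 fell, beside 8.03% and 9.15% of all tested genes, and the median log2 fold change was -0.06. *Pparg*, a nuclear receptor for fatty acids, was at 7.82, 4.27 and 9.79 CPM in the Scramble libraries and 32.9, 29.6 and 23.8 CPM in the ASO libraries. *Rxra*, the partner of PPAR receptors on DNA, was at 31.5, 29.6 and 30.2 CPM in the Scramble libraries and 105, 84.2 and 60.4 CPM in the ASO libraries. Neither gene overlapped between the groups, and they rose by log2 fold changes of 1.99 and 1.45 (edgeR adjusted p = 0.00287 for *Pparg* and 0.00173 for *Rxra*). *Acaca*, which makes the malonyl-CoA that inhibits the entry enzyme, was at 105, 86.5 and 107 CPM in the Scramble libraries and 160, 148 and 139 CPM in the ASO libraries. *Acaca* rose by 0.59 (edgeR adjusted p = 0.00739), with no overlap, and *Gm5182* shares 31.7% of its 31-base stretches. *Nrip1*, a nuclear receptor corepressor, was at 196, 206 and 180 CPM against 105, 114 and 119 CPM and fell by 0.79 (edgeR adjusted p = 0.00098). *Ppara* and *Prkaa2* did not pass the filter, and *Ppargc1a* was at 0 counts in every library, where 3 counts would be 0.166 to 0.189 CPM.

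Among PPAR target genes outside beta-oxidation, 4 of 10 were tested and 2 fell, where 9.15% of all tested genes were called lower. By edgeR, DESeq2 and limma-voom 0 rose. At an unadjusted p under 0.05, 1 was higher and 2 lower, beside 34.9% of all tested genes in either direction. *Txnip*, known as a glucose-responsive arrestin, was at 459, 690 and 366 CPM in the Scramble libraries and 101, 146 and 226 CPM in the ASO libraries. *Acot2*, a mitochondrial thioesterase, was at 5.46, 9.34 and 7.001 CPM in the Scramble libraries and 3.04, 2.76 and 3.67 CPM in the ASO libraries. Both fell without overlap, with log2 fold changes of -1.68 and -1.20 (edgeR adjusted p = 0.0347 for *Txnip* and 0.0147 for *Acot2*). *Txnip* lost its call without Scramble replicate 1 or 2 or ASO replicate 1 or 2, and *Acot2* without ASO replicate 2 (highest edgeR adjusted p = 0.126 and 0.087). *Txnip* was not called with no filter either (edgeR adjusted p = 0.112). *Txnip* shares sequence with *Gm15441* and *Acot2* with *Acot1*.

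Since *Pparg* and *Rxra* rose, the promoter windows of the 9 genes, all in the RefSeq table, were searched, after those values were seen, for the DNA letters known for these receptors. The hexamer AGGTCA was in 3 of 9 windows, those of *Cpt1a*, *Acadm* and *Acadvl*, and in 16.3% of the 32851 windows. AGGTCANAGGTCA, named DR1 and made of that hexamer in direct repeat, was found with up to 2 mismatches in the windows of *Slc25a20* and *Etfa*, and in 3.86% of all windows. CACGTG, named the E-box and not counted among those letters, was in 0 of 9 windows and 7.15% of all. Both strands were searched, and no window of the 9 held both the hexamer and DR1. A match is a description of letters and is not a site. Printed 5′ to 3′ on the gene's strand, without annotated exons, are *Cpt1a* as the entry enzyme (chr19:3323051-3323284, plus strand), *Acadm* (chr3:153944644-153944893, minus strand) and *Etfa* (chr9:55512244-55512493, minus strand), from RefSeq on GRCm38.p6. Capitals mark the hexamer in *Cpt1a* and *Acadm* and DR1 in *Etfa*, each on the other strand. The *Cpt1a* stretch lies inside the GENCODE bounds of that gene given above, before the RefSeq start site that was searched.
Cpt1a: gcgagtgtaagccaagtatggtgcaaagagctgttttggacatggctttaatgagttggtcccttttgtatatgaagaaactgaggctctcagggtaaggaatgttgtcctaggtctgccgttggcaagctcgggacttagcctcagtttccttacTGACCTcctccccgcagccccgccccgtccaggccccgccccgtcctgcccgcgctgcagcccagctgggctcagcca
Acadm: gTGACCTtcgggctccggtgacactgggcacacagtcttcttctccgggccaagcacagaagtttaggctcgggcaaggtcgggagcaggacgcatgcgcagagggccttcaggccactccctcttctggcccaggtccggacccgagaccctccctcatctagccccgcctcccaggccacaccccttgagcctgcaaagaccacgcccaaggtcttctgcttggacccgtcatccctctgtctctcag
Etfa: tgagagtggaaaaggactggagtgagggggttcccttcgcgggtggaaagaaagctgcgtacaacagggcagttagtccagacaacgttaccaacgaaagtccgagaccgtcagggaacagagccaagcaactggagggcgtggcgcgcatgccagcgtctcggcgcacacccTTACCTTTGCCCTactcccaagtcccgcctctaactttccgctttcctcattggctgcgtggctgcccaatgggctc
The fold changes of these 3 genes were -0.23, -0.12 and 0.20 on the log2 scale, none past the test.

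The routes on either side of beta-oxidation are given for comparison, by counts and medians alone. Of 17 genes of the tricarboxylic acid cycle, which takes up the acetyl-CoA, 6 rose and 0 fell, with a median log2 fold change of 0.26 and 12 higher at an unadjusted p under 0.05. Over all tested genes 8.03% were called higher and 34.9% had an unadjusted p under 0.05 in either direction. Examples are *Idh3a* at 0.56, *Cs* at 0.48 and *Mdh2* at 0.38 (edgeR adjusted p = 0.0108, 0.0138 and 0.0401). Of 17 genes of fatty acid synthesis, the opposite route, 7 rose and 0 fell, with a median of 0.35 and 11 higher at an unadjusted p under 0.05. *Acaca* stands in this list too. In these 2 lists 0 genes were lower at an unadjusted p under 0.05 by edgeR, DESeq2 or limma-voom. Examples are *Me1* at 1.75, *Scd1* at 1.18, *Fads2* at 0.92 and *Fasn* at 0.62 (edgeR adjusted p = 0.0436, 0.00335, 0.0156 and 0.00984). *Scd1* shares 5.18% of its 31-base stretches with *Scd2* and 5.84% with *Scd3*. For the summed counts of *Scd1*, *Scd2* and *Scd3*, a setting chosen after seeing the data, the log2 fold change was 0.54 (edgeR adjusted p = 0.0189). *Scd2* was the most abundant gene of the list, so this value is not that of *Scd1* alone. *Me1* shares 28.6% of its stretches with *Gm7049*. Its level was low, at 0.281, 0.540 and 0.248 CPM in the Scramble libraries and 1.43, 0.642 and 1.60 CPM in the ASO libraries. A minimum of 10 counts in every library left it out. The call of *Me1* was lost with each library left out in turn and with limma-voom, and those of *Idh3a*, *Fads2* and *Fasn* without ASO replicate 2. *Cs* lost its call without Scramble replicate 1 or ASO replicate 1 or 2, and *Mdh2* without Scramble replicate 1 or 2 or ASO replicate 1 or 2. Whether these lists differ from the 9 enzymes was not tested.

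**Figure D5:**
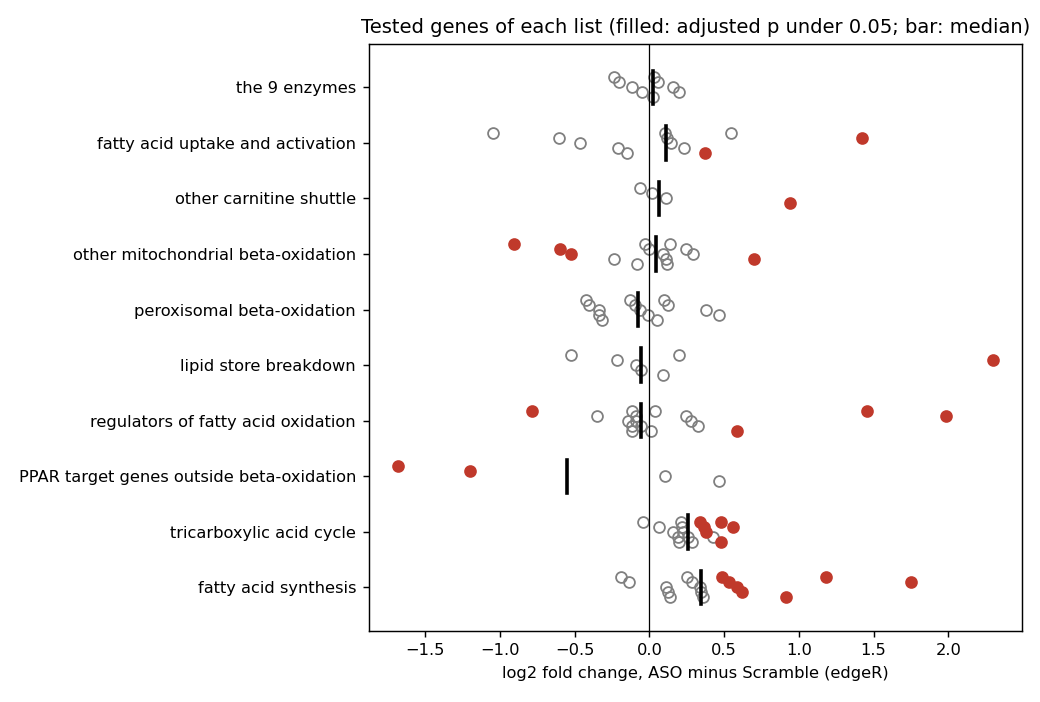
Log2 fold change, ASO minus Scramble (horizontal axis, edgeR), of the tested genes of each list, filled where the adjusted p was under 0.05, with a bar at the median of the list. The 9 enzymes lie between -0.23 and 0.20 with none filled, and the medians of the tricarboxylic acid cycle and of fatty acid synthesis are 0.26 and 0.35.

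Markers of other cells and a measure of mitochondrial RNA were read beside these results. The 13 mitochondrially encoded mRNAs held 1.84%, 2.01% and 1.83% of counts in the Scramble libraries and 1.102%, 1.26% and 1.14% in the ASO libraries, without overlap. The 7 Treg markers, led by *Il2ra*, summed to 3397, 3364 and 3589 CPM of total counts in the Scramble libraries and 3740, 3864 and 3631 CPM in the ASO libraries. Most of the Treg markers went the other way from this sum, with 6 of 7 negative and a median log2 fold change of -0.42, and 1 was called higher and 3 lower by edgeR. Among all tested genes 8.03% were called higher and 9.15% lower, against which the counts of called markers are to be read. The 6 B cell markers, led by *Ighm*, summed to 333, 471 and 221 CPM and to 82.8, 118 and 151 CPM, with 1 called lower and none at 0. Their genes went both ways, with 2 of 6 positive. DESeq2 called 1 of the 6 higher and 2 lower. The CD8 T cell markers, led by *Cd8b1*, summed to 11.4, 13.9 and 10.8 CPM and to 14.2, 10.7 and 15.8 CPM, with 1 of 2 called higher.

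The 4 NK cell markers, led by *Eomes*, summed to 53.1, 33.1 and 54.7 CPM in the Scramble libraries and 27.4, 26.5 and 24.3 CPM in the ASO libraries, with *Klra8* and *Klrb1c* at 0 in every library. *Ncr1* was at 1, 2 and 0 counts against 1, 1 and 0, so this sum is almost that of *Eomes* alone. The 8 myeloid markers, led by *Cd68*, summed to 8.20 to 10.9 CPM over the 6 libraries. The 5 mast cell and basophil markers, led by *Kit*, summed to 6.42, 7.49 and 7.33 CPM in the Scramble libraries and 4.88, 5.36 and 5.77 CPM in the ASO libraries, without overlap. Its genes went both ways: *Kit* was called lower, while *Cpa3* stood at 1.09 on the log2 scale (edgeR adjusted p = 0.0526) and was called higher by limma-voom. *Mcpt8*, at 0, 2 and 3 counts against 16, 11 and 5, and *Fcer1a*, at 0, 2 and 0 counts against 4, 8 and 6, did not pass the filter. The 8 erythroid and platelet markers, led by *Alas2*, summed to 1.54 to 3.15 CPM, with *Hba-a2* at 0. The myeloid, erythroid and platelet sums overlapped between the groups, and *Eomes* was called lower. By the paper's methods, naïve CD4 cells were taken by negative selection with a kit before culture. The part of these other cells and of the mitochondrial share in the values of the fatty acid oxidation genes was not tested.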

How the data were processed

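The authors made estimated counts per Ensembl gene with Kallisto, and the deposited table holds them as whole numbers without normalization. The submitters' processing notes name GRCm38; version and annotation are not given in the sources used here. In R 4.3.3, genes were filtered with filterByExpr at its defaults in edgeR 4.0.16 and scaled by TMM. The groups were tested two-sided by its quasi-likelihood F test in robust mode, with no covariate, and p-values were adjusted by Benjamini-Hochberg over 14936 genes, with a threshold of 0.05. The study describes the libraries as biological replicates, and whether these are separate animals or cultures is not given in the sources used here, so p-values measure the spread between these libraries. Library values are CPM after TMM, and summed marker levels are CPM of total counts. Floors of 3 counts cover counting error only. Positions, lengths and shared 31-base stretches came from GENCODE M21, and promoters from RefSeq.

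The members and lists were chosen with earlier results of these data known. Genes named were the 9 enzymes; of each other pathway list, up to the 4 called genes with the largest absolute log2 fold change and, where fewer than 2 were called, the most abundant gene; the 3 genes most correlated with *Cpt1a*; and *Pgam1*, *Pgam2* and *Foxp3*. Some genes that share sequence with these or did not pass the filter, and genes of the marker lists, were named after their values were seen. A gene that this rule names is not reported here. The scripts were tested on simulated data.

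The alternatives were DESeq2 1.42.0 (28511 genes tested), limma-voom (limma 3.58.1), and scaling by RLE or by library size alone. Others left out genes of ribosomal proteins and mitochondrial DNA (14826 genes tested), used no filter or asked for a minimum of 10 counts in every library. The rest were a block for replicate number, leaving out each library in turn, an adjusted p under 0.01 and, for levels, the longest transcript. The sum with genes that share at least 5% of their 31-base stretches was added after seeing the data.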

Additional observations from a re-analysis of the deposited data

How the results depend on the processing

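The 9 enzymes kept 0 called higher in all 16 alternatives and 0 called lower in 15 of them; without Scramble replicate 3, 1 was called lower, *Cpt1a*, so that this count ran from 0 to 1 with 1 library left out. Signs turned for small fold changes only. With library size alone the log2 fold change was -0.00948 for *Cpt2* and -0.00656 for *Hadha*. With 1 library left out it ran from -0.0647 to 0.0921 for *Cpt2*, from -0.0952 to 0.0304 for *Hadhb*, from -0.127 to 0.0196 for *Slc22a5* and from -0.00327 to 0.0923 for *Ech1*. Of all genes 2565 were called, 391 to 3484 with 1 library left out, 453 at an adjusted p under 0.01 and 3732 with no filter. DESeq2 called 3078 among 28511 genes tested, so the tool and the filter on low counts changed together. Genes of the other fatty acid oxidation lists called higher, 8, were 5 at an adjusted p under 0.01 and 5 to 11 with 1 library left out. Those called lower, 6, were 11 with no filter, 1 at an adjusted p under 0.01 and 1 to 11 with 1 library left out. With the replicate block 1235 genes were called, 5 of these lists higher, and 0 of the 9 enzymes. The block ended the calls of *Acsl4*, *Slc25a29*, *Acad10*, *Etfb*, *Txnip*, *Mdh2* and *Me1* (edgeR adjusted p from 0.0528 to 0.103). Equal replicate numbers correlated at 0.0534, -0.034 and -0.237, so the libraries were not treated as paired. Beside the 9 enzymes, the 28 named genes gave 372 values in the same direction and on the same side of the threshold, 70 that were no longer past it, 2 that were newly past it and 3 that turned sign. The causes were not tested. With 3 libraries a group, the precision of each fold change is that of its interval.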
